A study of Mus musculus with 8 samples.

Results

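The 10 genes described here encode the enzymes that make and destroy retinoic acid. They were taken by symbol from the expression table, in which all 10 were found among 22744 genes: the retinol dehydrogenases Rdh10 and Rdh11, the retinal reductase Dhrs3, the retinol acyltransferase Lrat, the retinal dehydrogenases Aldh1a1, Aldh1a2 and Aldh1a3, and the hydroxylases Cyp26a1, Cyp26b1 and Cyp26c1. Whole testes were taken at postnatal day 8 (P8) from 3 samples null for Dmrt6, the gene listed as Dmrtb1, and from 3 wild-type samples, all of mice on a C57BL/6 background. The design text calls the 3 samples of each genotype biological replicates, and p-values here measure the spread between those samples. How the null allele was made is not given in the sources used here. DMRT6 binding came from 1 chromatin immunoprecipitation (ChIP) library and 1 input library made from testes of adult wild-type mice, labelled C57BL/6 and mixed.

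Retinol is stored as esters by LRAT, oxidised reversibly to retinal by retinol dehydrogenases, and oxidised irreversibly to retinoic acid by the ALDH1A enzymes, while CYP26 enzymes inactivate the product. In the mouse testis retinoic acid starts spermatogonial differentiation and meiosis, in part through Stra8, and CYP26B1 is known for keeping it from germ cells of the fetal mouse testis. Sertoli cells and germ cells are both known to supply the enzymes, so the levels in a whole testis add up contributions of several cell types. DMRT6 is a DNA-binding protein of differentiating spermatogonia, and the design sets null against wild-type testes at an age when such cells are present.

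Values are log2 CPM, the log2 of reads scaled to the size of the library, and whole reads could be recovered from them. The libraries held 26.2 to 27.4 M recovered reads in null testes and 23.8 to 29.0 M in wild-type testes. Dmrtb1 checked the labels: it had 14, 25 and 26 reads in null replicates 1, 2 and 3, against 194, 510 and 254 in wild-type replicates 1, 2 and 3. Its difference was -3.78 log2 CPM (SE 0.36), at an adjusted p of 0.0516 in limma, and -3.96 at 0.0182 without null replicate 3. Null replicate 3 stood apart from the other 5 libraries. It lay at 54.3 on the first principal component, with the others between -20.2 and 1.68, and it was the highest of the 6 libraries for 34.5% of the 16634 tested genes and the lowest for 34.0%. Defining testis markers were present in both genotypes, with Sertoli genes summing to 2683 to 3520 CPM in null and 3068 to 3235 CPM in wild type, and Leydig genes to 740 to 865 CPM in null and 803 to 976 CPM in wild type. Of 9 listed genes of pachytene and later germ cells, 7 lay below the filter.

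None of the 9 retinoic acid enzyme genes that could be tested differed between the genotypes past the threshold, and the null and wild-type values of all 10 overlapped. Of the 9, 4 had a higher mean in null and 5 a lower one, and their median difference was -0.07 log2 CPM, or -0.02 without null replicate 3, beside 0.01 over all tested genes with every library. In limma with Benjamini-Hochberg adjustment over all 16634 genes, the adjusted p of the members ran from 0.755 to 0.863, and 0 of 9 had an unadjusted p below 0.05. Across all tested genes 1 passed, which is 0.00601%, 3.47% had an unadjusted p below 0.05, and the genotypes did not overlap for 11.1%. Only genes averaging 0 log2 CPM or more over the libraries were tested, which left out Cyp26c1 alone among the members. In whole testis, a difference in the number of cells of a type and one in the RNA per cell cannot be told apart. The genes were not ranked against each other by level, because transcript lengths were not used here.

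**Figure D1:**
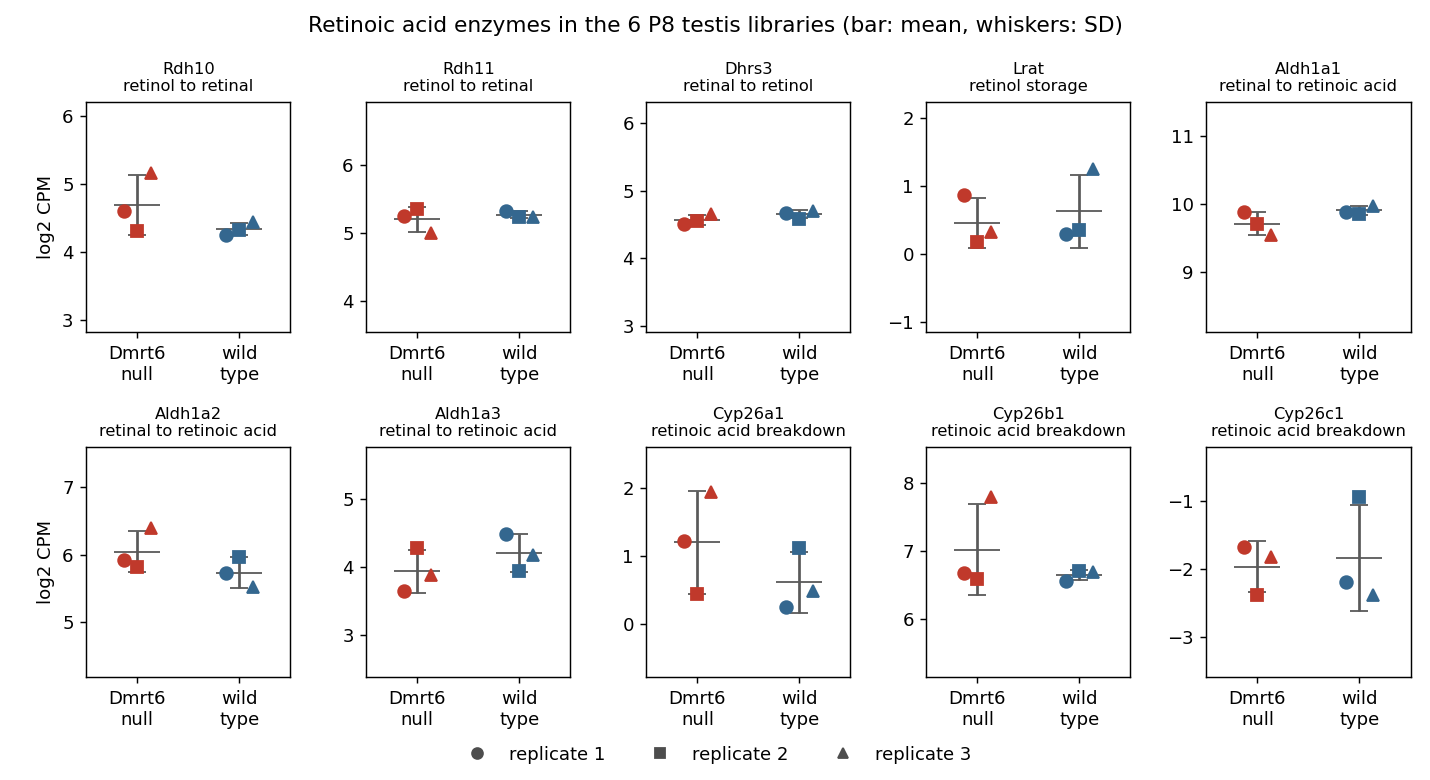
Level of each of the 10 enzyme genes in log2 CPM, with Dmrt6 null libraries in red on the left and wild-type libraries in blue on the right of each panel, 1 symbol shape per replicate, the mean as a bar and the SD as whiskers (n = 3). Every panel spans the same 3.4 log2 units. Null replicate 3, the red triangle, is the highest of the 6 libraries for Rdh10, Aldh1a2, Cyp26a1 and Cyp26b1 and the lowest for Rdh11 and Aldh1a1.

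Among the enzymes that act on retinol and retinal, Rdh10 had the largest mean difference. Rdh10 (ENSMUSG00000025921, chromosome 1, 16095855 to 16123815, plus strand, in mm9 as for all genes here) catalyses the first, rate-limiting oxidation of retinol in the mouse embryo. It stood at 4.60, 4.30 and 5.17 log2 CPM in null replicates 1, 2 and 3, against 4.25, 4.32 and 4.43 in wild-type replicates 1, 2 and 3. Null replicates 1 and 3 lay above all wild-type libraries and null replicate 2 lay among them. The difference was 0.36 (SE 0.21, 95% interval -0.14 to 0.85), and 0.12 (SE 0.14) without null replicate 3.

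Rdh11 (ENSMUSG00000066441, chromosome 12, 80275324 to 80293280, minus strand), a short-chain dehydrogenase also known from the retina, was at 5.25, 5.36 and 5.0 log2 CPM in null and 5.33, 5.23 and 5.24 in wild type. Its difference was -0.07 (SE 0.13), with a 95% interval that covers 0.782 to 1.17 times the wild-type level. Without null replicate 3, its lowest library, the difference was 0.04. Dhrs3 (ENSMUSG00000066026, chromosome 4, 144482730 to 144518112, plus strand) reduces retinal back to retinol and lies 37.1 Mb from Dmrtb1 on the same chromosome. It spanned the narrowest range of the 10 genes, with 4.51, 4.55 and 4.65 log2 CPM in null and 4.67, 4.58 and 4.70 in wild type, a difference of -0.08 (SE 0.12; -0.12 without null replicate 3) and an interval of 0.787 to 1.14 times wild type. Lrat (ENSMUSG00000028003, chromosome 3, 82696501 to 82707895, minus strand), the enzyme of retinyl ester storage, was sparse, with 48, 31 and 32 reads in null replicates and 29, 37 and 65 in wild-type replicates. Wild-type replicate 3 was its highest library. Its difference of -0.17 (SE 0.35) was 0.14 without that library, so its direction rested on a single sample.

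The retinal dehydrogenases make retinoic acid itself. Aldh1a1 (ENSMUSG00000053279, chromosome 19, 20676451 to 20717952, plus strand) had 24743, 23044 and 19114 reads in null replicates 1, 2 and 3, against 22504, 27027 and 27519 in wild-type replicates 1, 2 and 3. On the log2 CPM scale these were 9.88, 9.71 and 9.54 in null and 9.88, 9.85 and 9.97 in wild type, so that 2 null libraries lay below every wild-type library and the other among them. It had the smallest unadjusted p of the members, 0.104 in limma, with a difference of -0.19 (SE 0.11) and an interval from 0.737 to 1.04 times wild type. Without null replicate 3 the difference was -0.11 (SE 0.09). Its close paralogue Aldh1a7 lies on the same chromosome, and reads of near-identical stretches may have been split between both or left out, so the level of Aldh1a1 is uncertain in that respect. Aldh1a7 differed by -0.03 (SE 0.20), and by 0.18 without null replicate 3.

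Aldh1a2 (ENSMUSG00000013584, chromosome 9, 71063596 to 71144050, plus strand), the enzyme that supplies most retinoic acid to the early mouse embryo, stood at 5.92, 5.82 and 6.39 log2 CPM in null, against 5.72, 5.96 and 5.51 in wild type. Only null replicate 3 lay above the wild-type range. The difference was 0.31 (SE 0.18, 95% interval -0.10 to 0.72), and 0.13 (SE 0.13) without that library. Aldh1a3 (ENSMUSG00000015134, chromosome 7, 73535778 to 73572403, minus strand), which acts in the developing eye and nose, was at 3.64, 4.28 and 3.89 log2 CPM in null and 4.49, 3.95 and 4.18 in wild type. Its difference of -0.27 (SE 0.21) changed little without null replicate 3, at -0.25 (SE 0.22), and its replicates spread widely in both genotypes.

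**Figure D2:**
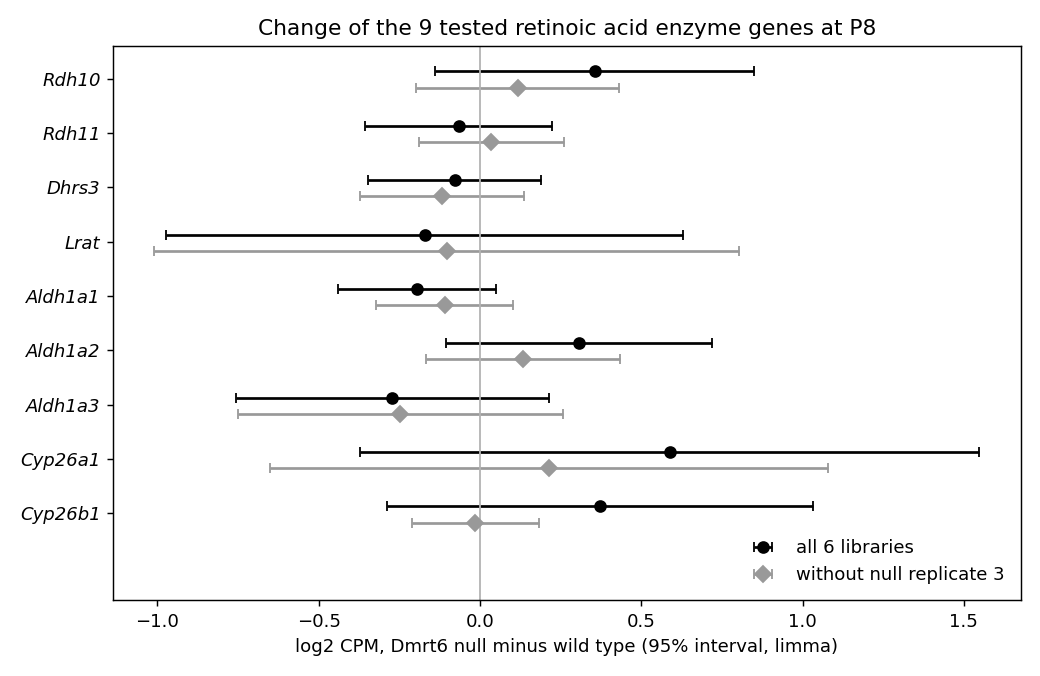
Difference in log2 CPM, Dmrt6 null minus wild type, of the 9 tested enzyme genes, with 95% intervals from limma. Black circles use all 6 libraries and grey diamonds leave out null replicate 3. Every interval spans 0, and Cyp26b1 stands at 0.37 with all libraries and at -0.02 without that one.

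Of the breakdown enzymes, Cyp26b1 carried the widest gap of a single library. Cyp26b1 (ENSMUSG00000063415, chromosome 6, 84521938 to 84543740, minus strand) had 2693, 2664 and 5714 reads in null replicates 1, 2 and 3, against 2253, 3052 and 2824 in wild-type replicates 1, 2 and 3. In CPM these were 102, 96.5 and 222 in null and 94.5, 104 and 103 in wild type. Null replicates 1 and 2 lay within the wild-type range of 6.56 to 6.70 log2 CPM, whereas null replicate 3, at 7.79, lay 1.09 log2 units above the next library and at 2.17 times the median of the other 5. The SD was 0.67 in null and 0.08 in wild type (n = 3 each). The difference between genotypes was 0.37 (SE 0.29, 95% interval -0.29 to 1.03) with all libraries and -0.02 (SE 0.09, 95% interval -0.21 to 0.18) without null replicate 3. A gap of at least 1 log2 unit above all other libraries was found in null replicate 3 for 319 tested genes, 1.92%, and in each of the other 5 libraries for at most 0.204%.

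Cyp26a1 (ENSMUSG00000024987, chromosome 19, 37772298 to 37776018, plus strand), the best known retinoic acid-induced gene of the family, was sparse, with 61, 37 and 99 reads in null replicates 1, 2 and 3 and 28, 63 and 38 in wild-type replicates 1, 2 and 3. Its log2 CPM was 1.22, 0.43 and 1.95 in null and 0.24, 1.11 and 0.48 in wild type. Null replicate 3 was again the highest and null replicate 2 lay within the wild-type range. The difference was 0.59 (SE 0.42), with an interval from 0.773 to 2.92 times wild type, and 0.21 (SE 0.38) without null replicate 3. Cyp26c1 (ENSMUSG00000062432, chromosome 19, 37760071 to 37767888, plus strand) begins and ends upstream of Cyp26a1 with 4.4 kb between both genes. It had 8, 5 and 7 reads in null and 5, 15 and 5 in wild type, below the filter, and an unfiltered fit gave -0.13 (SE 0.58, 95% interval -1.46 to 1.21), which takes in a 2-fold difference either way, so such a difference was not detectable at this depth.

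The sequences just before the starts of Cyp26a1, Cyp26b1 and Aldh1a2 are shown because these genes were highest together in null replicate 3 and because a retinoic acid response element is textbook knowledge for the first of them. Each is 250 bases, 5′ to 3′ on the gene's strand, from RefSeq on GRCm38.p6, where Cyp26a1 is chr19:37697558-37697807 (plus strand), Cyp26b1 is chr6:84593811-84594060 (minus strand) and Aldh1a2 is chr9:71215539-71215788 (plus strand). Capitals mark a direct repeat of the half-site AGNTCA with 5 bases between in Cyp26a1. In Cyp26b1 they mark a match to ACANTGT, a loose form of the core of the DMRT family's motif. That form allows any base at the centre, and the match has G there.
Cyp26a1: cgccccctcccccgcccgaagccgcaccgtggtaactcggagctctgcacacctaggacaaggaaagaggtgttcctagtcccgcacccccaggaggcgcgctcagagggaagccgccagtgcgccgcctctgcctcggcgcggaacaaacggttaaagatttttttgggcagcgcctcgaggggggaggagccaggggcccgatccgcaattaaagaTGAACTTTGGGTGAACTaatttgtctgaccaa
Cyp26b1: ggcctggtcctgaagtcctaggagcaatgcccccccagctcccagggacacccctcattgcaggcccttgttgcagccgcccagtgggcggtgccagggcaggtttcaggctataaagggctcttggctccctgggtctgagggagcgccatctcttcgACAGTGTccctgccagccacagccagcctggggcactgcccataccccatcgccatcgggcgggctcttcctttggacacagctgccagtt
Aldh1a2: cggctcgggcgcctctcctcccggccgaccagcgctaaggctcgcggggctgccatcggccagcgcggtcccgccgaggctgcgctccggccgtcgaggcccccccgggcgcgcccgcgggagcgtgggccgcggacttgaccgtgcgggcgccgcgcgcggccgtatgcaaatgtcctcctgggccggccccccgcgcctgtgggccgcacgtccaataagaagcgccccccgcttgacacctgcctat
The repeat was searched as AGNTCANNNNNAGNTCA on both strands, and in Cyp26a1 it is read on the opposite strand and appears above as TGAACTTTGGGTGAACT, from 32 to 16 bases before the start. Of 32851 promoter windows of the same length, 65 or 0.198% held it. It was in 1 of the 12 windows of the 8 members found in the RefSeq table, which lists several starts for Rdh11, Dhrs3 and Aldh1a1. The loose form ACANTGT, whose reverse complement reads the same way, was in 6.47% of all windows. It was in 1 of those 12 windows, from 91 to 85 bases before the start of Cyp26b1. A repeat with 2 bases between, AGNTCANNAGNTCA, was in 0 of the 12 windows and in 0.0852% of all, and TATAAA was in 1, that of Cyp26b1, and in 12.4% of all, each on both strands. A match describes the letters and not a bound site. GC content differed widely between the windows, with 77.6% in Aldh1a2, above 97.6% of all windows, 64.8% in Cyp26b1, 61.6% in Cyp26a1 and 42.8% at the first listed start of Aldh1a1, beside a median of 52.4% over all windows.

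Null replicate 3 was the highest library for 4 of the 9 tested members and the lowest for 2, beside 34.5% and 34.0% of all tested genes. These members also ran together or against each other. Across the 6 libraries Pearson's r of log2 CPM was 0.95 for Cyp26b1 with Rdh10, 0.90 for Aldh1a2 with Cyp26a1, -0.94 for Rdh10 with Rdh11 and -0.95 for Cyp26b1 with Rdh11. These values share 6 libraries of which 1 stands apart, and they are given as a description, not repeated over the 5 libraries left without it. The log2 ratio of Cyp26b1 to Aldh1a1 within a library, which library scaling does not touch, was -3.20, -3.11 and -1.74 in null replicates 1, 2 and 3, against -3.32, -3.15 and -3.28 in wild-type replicates 1, 2 and 3. The log2 ratio of Rdh10 to Dhrs3 was 0.09, -0.25 and 0.52 in null, against -0.42, -0.26 and -0.27 in wild type. In both ratios null replicate 3 lay far above the wild-type range and null replicate 2 just above its upper end. Null replicate 1 lay within that range for Cyp26b1 to Aldh1a1. For Rdh10 to Dhrs3 it lay above, so every null library exceeded every wild-type one. The margin was narrow, at -0.250 in null replicate 2 against -0.261 in wild-type replicate 2. Each gene alone overlapped between the genotypes, and the share of gene pairs without overlap was not computed. The log2 ratio of Cyp26b1 to Aldh1a2, a breakdown over a synthesis enzyme, was 0.76, 0.78 and 1.41 in null, against 0.84, 0.74 and 1.17 in wild type. There null replicates 1 and 2 lay within the wild-type range and null replicate 3 above it by less than the wild-type libraries spanned. The log2 ratio of Aldh1a2 to Aldh1a1 was -3.96, -3.89 and -3.15 in null, against -4.16, -3.89 and -4.45 in wild type, and null replicate 3 was again the highest library.

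The tested genes whose pattern was most like that of Cyp26b1 were Arhgap32 (r = 0.9995 over 6 libraries) and Wbp7 (r = 0.9991), and 1999 tested genes had an r above 0.9 with it. For Rdh10 they were Abcc1 and Sos1, for Aldh1a2 Akirin2 and Rab3gap2, for Cyp26a1 Fads2 and Gspt1, each with an r of at least 0.995. Rdh11 was most like Bche and Sf3b1 and Aldh1a1 most like Rab19 and Gm10182. The 3 members that null replicate 3 did not lead in either direction had fewer such genes, with an r above 0.9 for 39 genes with Dhrs3, 86 with Lrat and 160 with Aldh1a3. Their nearest genes were Hist1h2ag and Zfp41 for Dhrs3, Etd and Gm17670 for Lrat, and Kcnj5 and Ier3 for Aldh1a3.

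**Figure D3:**
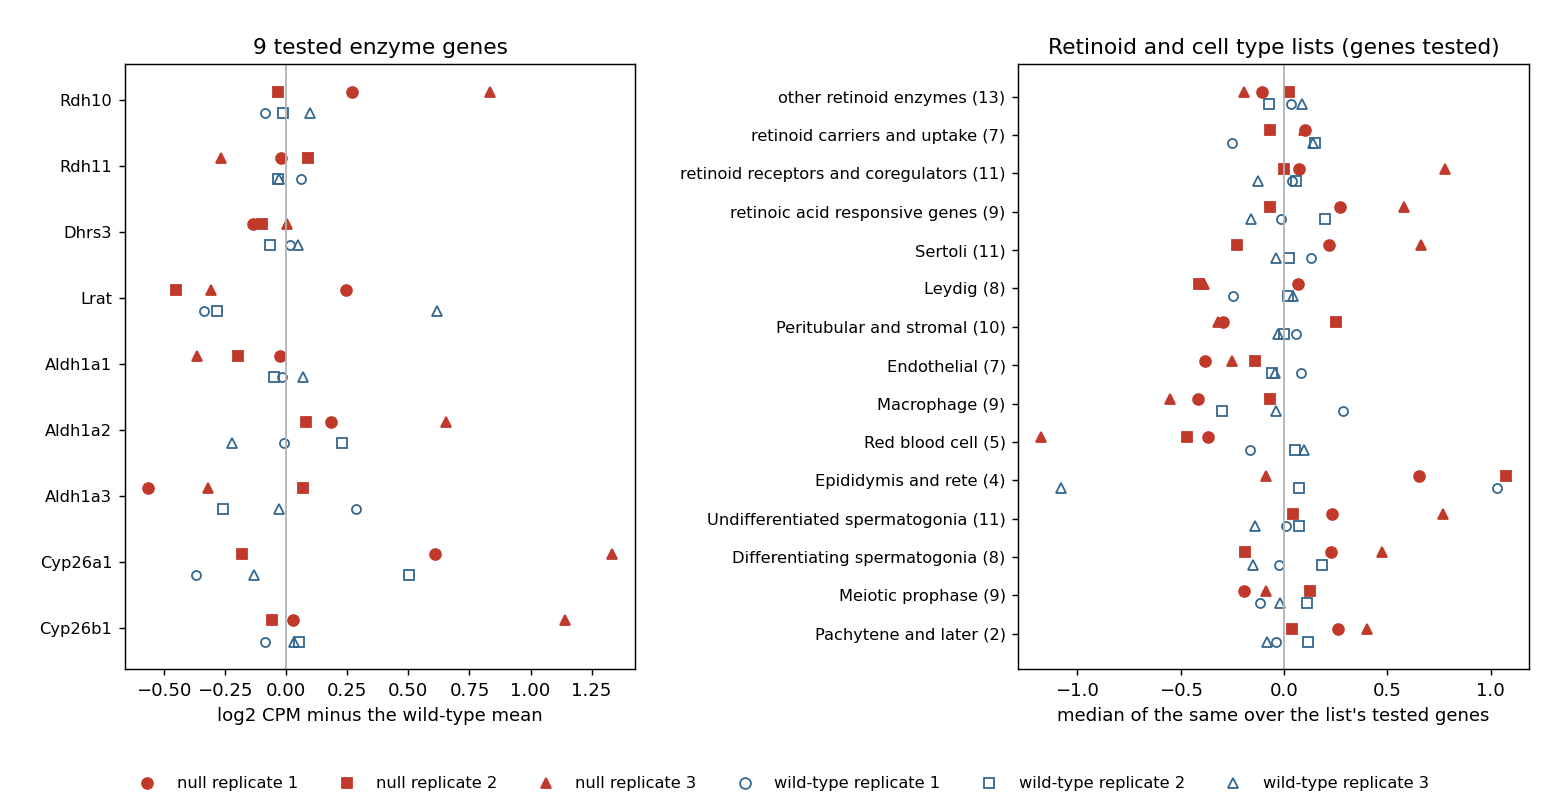
Left, log2 CPM of each library minus the wild-type mean for the 9 tested enzyme genes, with filled red symbols for Dmrt6 null and open blue symbols for wild type. Right, the median of the same quantity over the tested genes of each retinoid and cell type list, with the number of genes in brackets. The red triangle, null replicate 3, lies at 1.14 for Cyp26b1, 0.78 for retinoid receptors and coregulators and -1.17 for red blood cell genes.

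Markers of several cell types stood high or low in null replicate 3. The summed level of 11 undifferentiated spermatogonia markers was 264, 243 and 398 CPM in null replicates 1, 2 and 3, against 260, 253 and 213 CPM in wild-type replicates 1, 2 and 3. The 8 differentiating spermatogonia markers, a list that holds Dmrtb1 and also Kit, Stra8 and Rec8, summed to 833, 705 and 1032 CPM in null and 841, 853 and 718 CPM in wild type. Of these 8 genes 6 had a higher mean in null, with a median of 0.31 that was 0.06 without null replicate 3. For the 5 red blood cell genes the sum was 1255, 1179 and 717 CPM in null and 1477, 1697 and 1776 CPM in wild type. Every null sum thus lay below every wild-type sum, not that of null replicate 3 alone. All 5 genes had a lower mean in null, with a median of -0.66 that was -0.43 without null replicate 3. All 9 macrophage genes had a lower mean in null too, with sums of 95.8 to 133 CPM in null and 109 to 168 CPM in wild type. The median deviation of 11 Sertoli markers from the wild-type mean was 0.22, -0.23 and 0.66 log2 CPM in null replicates 1, 2 and 3, whereas their sum was highest in null replicate 1, at 3520 CPM, with 3453 CPM in null replicate 3. For 10 peritubular and stromal markers that median was -0.30, 0.25 and -0.32, so null replicate 3 did not stand apart in the median. It was still the highest library for 2 of these 10 markers and the lowest for 5. Their sums were 3957, 5979 and 5466 CPM in null and 5242, 4887 and 5017 CPM in wild type. No listed marker was at 0 in all 6 libraries. The part of these cell types in the levels of Cyp26b1, Rdh10, Aldh1a2 and Cyp26a1 was not tested. Epididymis and rete genes ranged from 74.9 to 206 CPM in null and 24.8 to 206 CPM in wild type, without setting null replicate 3 apart. Wild-type replicate 3 had the lowest sum. It had 0 reads of Crisp1, against 871 to 3077 in the other libraries, and 209 of Cdh16, against 555 to 2070. Pax8 and Aqp1 of the same list were not lowest there. Whether the libraries differed in tissue from outside the testis was not tested.

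The rest of the retinoid pathway was read from 4 lists holding 36 distinct tested genes besides the members, and 0 of them passed the threshold. The unadjusted p was below 0.05 for 3 of these 36 genes, beside 3.47% of all tested genes. Of these 3, Kit and Tgm2 had a higher mean in null and Dhrs7 a lower one. The genotypes did not overlap for 4 of the 36, or 11.1%, the same share as over all tested genes. Among the 13 other retinoid enzymes 3 were higher and 10 lower in mean, with a median of -0.09, or -0.05 without null replicate 3. Dhrs7, a short-chain dehydrogenase, was at 5.71, 5.34 and 5.32 log2 CPM in null and 5.79, 5.69 and 6.02 in wild type (difference -0.38, SE 0.15; -0.31 without null replicate 3), with null replicate 1 inside the wild-type range. Rdh13, a mitochondrial member of the retinol dehydrogenase family, was at 5.32, 5.36 and 5.37 in null and 5.64, 5.51 and 5.53 in wild type (difference -0.21, SE 0.10; -0.22 without null replicate 3), with every null library below every wild-type one. Adh5 differed by -0.17 (SE 0.11) and Dgat1, which can also esterify retinol, by 0.22 (SE 0.15). Without null replicate 3 these were -0.08 for Adh5 and 0.09 for Dgat1.

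Among carriers and uptake proteins the directions were mixed, with 3 of 7 tested genes higher and 4 lower and a median of -0.00, or -0.03 without null replicate 3. The cellular retinoic acid-binding protein gene Crabp1 differed by 0.25 (SE 0.14), the endocytic receptor gene Lrp2 by 0.67 (SE 0.37), Fabp5 by -0.22 (SE 0.20) and the retinol transporter gene Stra6 by 0.33 (SE 0.44). Stra6 resembled Cyp26b1 in that null replicate 3, at 6.11 log2 CPM, lay above the other libraries, at 4.89 and 4.08 in null and 4.73, 4.87 and 4.49 in wild type. Without that library the difference of Stra6 was -0.21, that of Crabp1 0.21, that of Lrp2 0.63 and that of Fabp5 -0.19.

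All 11 tested receptor and coregulator genes had a higher mean in null, with a median of 0.20 that was 0.07 without null replicate 3. That library was the highest of the 6 for 10 of these 11 genes, beside 34.5% of all tested genes. The receptor genes Rxra (0.43, SE 0.27), Rxrb (0.33, SE 0.20) and Rarg (0.37, SE 0.24) each differed by about 0.10 to 0.11 without it. The corepressor gene Ncor1 was at 8.12, 8.06 and 8.17 log2 CPM in null and 7.97, 7.98 and 8.0 in wild type, a difference of 0.14 (SE 0.08; 0.11 without null replicate 3), with no overlap between the genotypes.

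Genes reported to respond to retinoic acid had a higher mean in null for 7 of 9 tested, with a median of 0.33 that was 0.09 without null replicate 3. Stra8, the retinoic acid-induced gene of meiotic entry, had 2677, 2193 and 3182 reads in null and 2064, 3370 and 2734 in wild type. Its difference was 0.00 (SE 0.18, 95% interval -0.40 to 0.41), an interval from 0.757 to 1.33 times wild type, and -0.15 (SE 0.14) without null replicate 3. Kit, the receptor gene of differentiating spermatogonia, was at 7.13, 7.03 and 7.43 log2 CPM in null and 6.83, 7.0 and 6.71 in wild type, with no overlap (difference 0.35, SE 0.13; 0.23 without null replicate 3). Tgm2, a transglutaminase gene, was at 6.29, 6.11 and 6.78 in null and 5.80, 6.11 and 5.97 in wild type, and its lowest null library exceeded the highest wild-type library only beyond the second decimal (difference 0.43, SE 0.18; 0.24 without null replicate 3). Sall4 and Rec8 differed by 0.63 (SE 0.40) and 0.42 (SE 0.35), which were 0.14 and 0.06 without null replicate 3. The sums of undifferentiated and of differentiating spermatogonia markers were highest in the same library, as given above. Of the differentiating markers, Sohlh1 (0.40, SE 0.14; 0.27 without null replicate 3) and Sohlh2 (0.28, SE 0.10; 0.24 without it) also had every null library above every wild-type one. Neither passed the threshold, and they are named after their values were seen. The genotypes did not overlap for 11.1% of all tested genes. Of the same 8 markers 2 had a lower mean in null, Dmrtb1 (-3.78) and Ccnd2 (-0.26; -0.33 without null replicate 3). Of the 11 undifferentiated markers 5 had a lower mean in null, while Neurog3 and Lin28a had every null library above every wild-type one. The part of these cells in the values of Kit and the other responsive genes was not tested.

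Peaks of DMRT6 in adult testis lay close to the starts of 2 of the 10 genes, Rdh10 and Aldh1a2. Distances run from the middle of a peak to the gene's 5′ end in the expression table, and the score is the authors' own value, with a median of 94.71 and a highest value of 3100 over 14862 peaks. A peak within 10 kb was found for 31.2% of all tested genes, so 2 of 10 is not above that background. Within 1 kb the same 2 members had a peak, beside 16.0% of all tested genes, and that contrast was not tested. Rdh10 held a peak at chromosome 1, 16096629 to 16096895, 907 bp inside the gene, with a score of 215.03, higher than 84.9% of the list. The peak of Aldh1a2 at chromosome 9, 71063031 to 71063177, lay 492 bp upstream with a score of 64.39, at the 12.6th percentile. With 1 ChIP library there is no replicate check on either peak, and the peak list is from adults while the expression is from P8. The table gives 1 start and 1 end per gene, so a position inside a gene could not be assigned to an exon, an intron or an untranslated region.

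The remaining 8 genes had no peak within 10 kb of the 5′ end or over the gene body. Cyp26c1 and Cyp26a1 shared their nearest peak (chromosome 19, 37746289 to 37746636, score 268.62), 13.6 kb upstream of Cyp26c1 and 25.8 kb upstream of Cyp26a1, inside the neighbouring gene Exoc6. The nearest peak to Lrat, at 27.4 kb past its start, lay 110 bp upstream of Rbm46. For Rdh11, Aldh1a1, Aldh1a3, Cyp26b1 and Dhrs3 the nearest peak was 102.9, 192.0, 262.9, 278.6 and 302.2 kb away. Those 5 of 10 genes were over 100 kb from any peak, as were 20.6% of all tested genes. The median distance to the nearest peak was 65.1 kb for the members and 27.4 kb for all tested genes. Stra8 had its nearest peak at 21.7 kb.

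**Figure D4:**
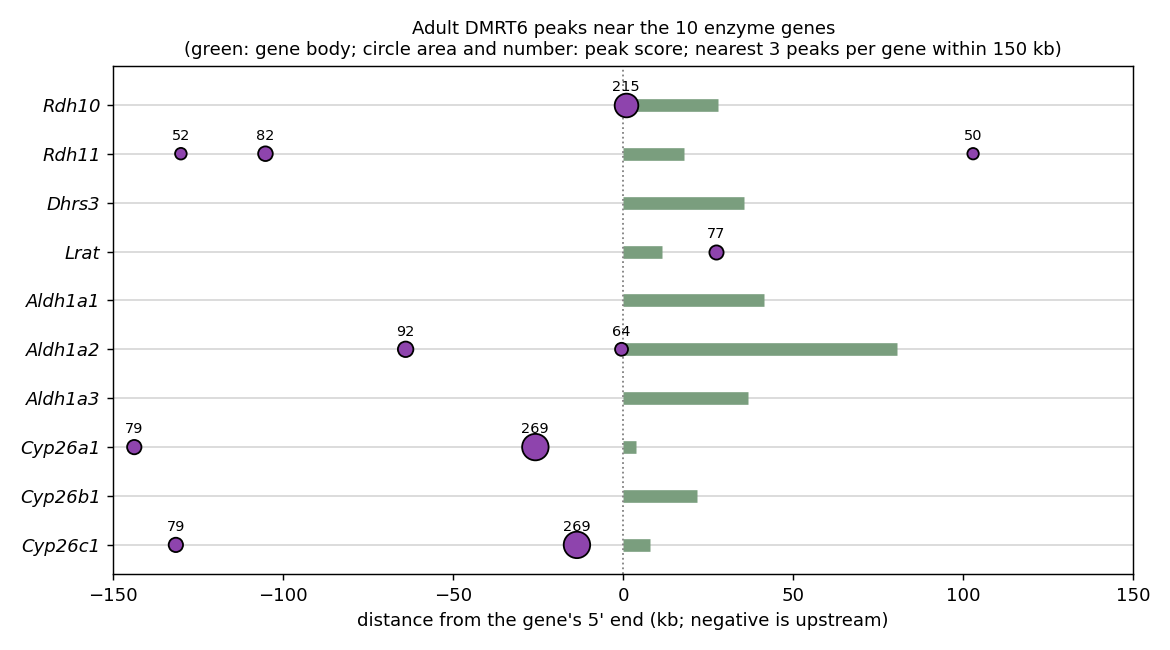
Adult DMRT6 peaks, purple circles with an area and a number for the score, by distance in kb from the 5′ end of each of the 10 genes, upstream to the left, with the gene body in green. Up to 3 nearest peaks within 150 kb are drawn for each gene. Rdh10 and Aldh1a2 have a peak at the start, and Dhrs3, Aldh1a1, Aldh1a3 and Cyp26b1 have none in the window.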

How the data were processed

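RNA was measured in 6 whole-testis libraries and DMRT6 binding in 1 ChIP library with 1 input library. The authors deposited log2 CPM values, 1 table for 22744 genes, and a peak list with 1 score per peak. Bowtie2, edgeR, Picard, STAR (2.3.0e) and the mm9 build are named in the submitters' processing notes without their roles. Not given in the sources used here: how reads were counted, with which annotation and whether by strand. The file name gives MACS 1.4 as peak caller.

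From the log2 values, 2 to the power of each rose in equal steps per library, and 100% came out as whole reads at a tolerance of 1e-06. The library size implied by the step was 0.979 to 1.01 times the sum of the reads. Genes with a mean of at least 0 log2 CPM (16634) entered limma-trend (limma 3.58.1, R 4.3.3) fitted with a single genotype term and nothing added to the deposited values. The threshold was a Benjamini-Hochberg adjusted p of 0.05. All differences are null minus wild type with model SE, and 95% intervals are those of the model. An exact permutation test of 3 against 3 cannot go below 0.1 and was not used. The fit was also run on counts simulated gene by gene, with no library standing apart. That run could not show how the fit behaves with a library such as null replicate 3.

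Coordinates are 1-based in mm9, except promoter windows, which are RefSeq on GRCm38.p6 and were not joined to the peaks. No mm9 genome was used here, so peak sequences are not shown. The members, the lists and the tests were chosen with earlier results of these data known. The rule named all members, Dmrtb1, Stra8, up to 4 genes of smallest p in each retinoid list and the 2 most alike genes per member. Alternatives covered filters, scaling, model, pseudocount, the replicate number as a block, each library left out, and peak windows and scores.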

Additional observations from a re-analysis of the deposited data

How the results depend on the processing

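No member and no other retinoid gene passed in limma under any of the 15 alternatives. The lowest adjusted p of a member was 0.0717, for Aldh1a3 with array weights. Those weights did not converge, gave null replicate 1 a weight of 19.3, and raised the calls over all genes to 136. With them 2 members had an unadjusted p below 0.05 in limma, Rdh10 (0.27, p 0.0150) and Aldh1a3 (-0.49, p 0.00388). So did 4716 of all tested genes. Of 133 recomputed member differences 4 changed sign: Cyp26b1 (-0.015) and Rdh11 (0.036) without null replicate 3, and Lrat without wild-type replicate 3 (0.14) and with array weights (0.26). With 1 library left out the differences ranged from -0.015 to 0.58 for Cyp26b1, -0.14 to 0.036 for Rdh11 and -0.38 to 0.14 for Lrat. The cause was not tested. Without null replicate 2 the unadjusted p in limma was below 0.05 for 2 members, Rdh10 (0.55, p 0.0217) and Cyp26a1 (0.97, p 0.0326). In that fit it was below 0.05 for 2547 of all tested genes. Without null replicate 1 it was below 0.05 for 1 member, Aldh1a1 (-0.28, p 0.0322), and for 678 of all tested genes. With any other single library left out it was below 0.05 for 0 members. No member passed the threshold in these fits. The count over all genes was 3 with no filter on low values and with median centring, 0 with a mean log2 CPM of at least 2 (where 420 genes had an unadjusted p below 0.05), 2 with quantile normalization, 2 with the replicate block, and 0 to 5 with 1 library left out, with 0 when null replicate 1, 2 when wild-type replicate 2 and 5 when null replicate 3 was dropped. Voom on the recovered reads, of which 100% were whole, called 1. Dmrtb1, at an adjusted p of 0.0516, crossed the threshold with no filter (-3.78), quantile normalization (-3.92), median centring (-3.83), array weights (-4.46) and the replicate block (-3.78). It did not with no mean-variance trend (adjusted p 0.134 in limma), voom (0.101) or a pseudocount of 1 CPM (0.0655). Its difference ranged from -4.00 to -3.45 with 1 library left out. Of those fits it crossed only without null replicate 3 (0.0182 in limma), with 0.133 to 0.289 in the others.

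The correlations of deviations between libraries of the same replicate number were -0.09, -0.22 and -0.04. Between libraries of different numbers they ran from -0.14 to 0.23. With 3 libraries per genotype these values cannot tell whether the libraries were paired. With the replicate block 0 members passed. The count of members with a peak stayed at 2 of 10 within 1 kb, where 16.0% of all tested genes had one. It was also 2 with any base of the peak counted (31.4% of all tested genes) and over the gene body or 10 kb either side (45.7%). It was 5 within 50 kb (64.2%) and within 100 kb (79.4%). It was 1 (Rdh10) with scores at or above the median (17.2%) or at or above 156.3 (8.93%).

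Depth limits Cyp26c1, Lrat and Cyp26a1 most, with 5 to 99 reads per library, and the 1 ChIP library limits every statement on binding.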

Other observations

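The peaks nearest to the CYP26 genes lay in a pair of related neighbours, which was seen only after the peaks were read. The shared nearest peak of Cyp26a1 and Cyp26c1 was inside Exoc6, and the nearest to Cyp26b1, at chromosome 6, 84822302 to 84822452 (score 78.90), was inside Exoc6b, 278.6 kb upstream. Both host genes encode exocyst subunits. Exoc6 differed by -0.07 (SE 0.15) and Exoc6b by -0.05 (SE 0.09) between null and wild type, and neither passed in limma.

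Bcmo1, which encodes the enzyme that cleaves beta-carotene to retinal, lay below the filter with 7, 10 and 10 reads in null and 4, 5 and 6 in wild type. It was singled out after its values were seen, because every null library exceeded every wild-type one on the log2 CPM scale. With 4 to 10 reads per library it was not among the tested genes, so no call was made for it. The genotypes did not overlap for 11.1% of the tested genes.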
